A study of Rattus norvegicus with 6 samples.

Results

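The genes described here are 9 genes of the oligodendrocyte lineage, namely Olig1, Olig2, Pdgfra, Cspg4, Ptprz1, Bcan, Gpr17, Cnp and Mbp, which span the stages from precursor to myelinating cell apart from the SOX factors. Each was found by its gene symbol in the count table of every library, in 1 row of 17048 rows (16881 different symbols), so that all 9 of 9 had a row. They were read in 6 RNA-seq libraries of wild-type (WT) rat neural stem/progenitor cells (NSPCs), self-renewing cells whose progeny include neurons and both macroglial types. The NSPCs, per the methods from the telencephalon of Sprague-Dawley rat embryos, were kept for 24 h in stemness-maintaining medium on carbon films of “High”, “Medium” or “Low” electrical conductivity, with 2 libraries for each film. The study takes “Low” and “Medium” as neural tissue-like and “High” as supraphysiological, and the question for these genes was whether their RNA differed between the neural tissue-like films and “High”. Every library came from cells on a carbon film, so each comparison is of 1 film with another. In the study's adhesion and differentiation assays the poly-D-lysine coat was adjusted to each film, and the methods do not say how the films of the sequenced cells were coated. The medium keeps cells as progenitors, and no library here came from cells under an oligodendrocyte differentiation protocol.

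Oligodendrocytes arise from progenitors that switch on the basic helix-loop-helix factors Olig1 and Olig2, divide as precursor cells that carry the receptor for platelet-derived growth factor (Pdgfra) and the NG2 proteoglycan (Cspg4), and then pass through a committed stage marked by the receptor Gpr17. As they mature they make myelin, with Cnp, an enzyme of non-compact myelin, rising before Mbp, a major protein of compact myelin. Several of these genes are not particular to the lineage. Olig1 and Olig2 are also on in dividing ventral progenitors and in NSPCs expanded with growth factors, Ptprz1 and Bcan are also made by radial glia and astrocytes, and Cspg4 is also made by pericytes.

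The counts came from QuantSeq libraries, which read the 3′ end of each polyadenylated transcript, and levels are in CPM, the counts of a gene relative to the library total after correction by the TMM factor, a scale for comparing 1 gene between libraries. Library totals ran from 5124863 to 6213676 counts, and 3 counts in a library, taken as the floor, corresponded to 0.433 to 0.713 CPM. The libraries hold no molecular identifiers, so counts and floors cover counting error only. Replicates differed beyond counting noise, with a chi-square per degree of freedom of 149 to 195 between the 2 libraries of a film. Of the genes with at least 50 counts in a library of a film, 19.99% (“Low”) to 30.2% (“Medium”) had 0 counts in the other library of that film. The share of counts on ribosomal RNA rows was 26.1% and 38.4% on “High” and 7.16% to 13.0% on the other films. The study states in general that experiments were repeated independently, but no source says whether the 2 libraries of a film were separate cultures, so that p-values measure the spread between these samples, which may be technical, and no batch is named, so that film and library preparation cannot be told apart. The labels name Trizol for RNA isolation where the methods name a Ribospin kit.

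Olig2, Cnp and Bcan are the 3 members whose values on “Low” and “Medium” did not overlap those on “High”. Of all genes tested, 8.06% were above “High” in this way and 10.1% below. The promoters of these members are shown for that reason alone. The promoters are from RefSeq on the rat build GRCr8, from 250 bases before to 50 bases after the start of the gene, 5′ to 3′ on the strand of the gene. Capitals mark matches on either strand. The motifs searched were the TATA box with the letters TATAAA, the CCAAT box with CCAAT, the GC box with GGGCGG and the E-box with CANNTG, and its form CAGCTG overlaps it. Olig2 is at chr11:43961335-43961634 (plus strand), Cnp at chr10:86011254-86011553 (plus strand) and Bcan at chr2:175765265-175765564 (minus strand).
Olig2: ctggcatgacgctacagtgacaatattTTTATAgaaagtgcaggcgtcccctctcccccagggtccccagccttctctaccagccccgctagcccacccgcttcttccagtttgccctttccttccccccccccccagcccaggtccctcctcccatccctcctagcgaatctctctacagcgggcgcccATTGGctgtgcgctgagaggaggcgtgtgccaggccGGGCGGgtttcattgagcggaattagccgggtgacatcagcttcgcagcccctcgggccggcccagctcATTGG
Cnp: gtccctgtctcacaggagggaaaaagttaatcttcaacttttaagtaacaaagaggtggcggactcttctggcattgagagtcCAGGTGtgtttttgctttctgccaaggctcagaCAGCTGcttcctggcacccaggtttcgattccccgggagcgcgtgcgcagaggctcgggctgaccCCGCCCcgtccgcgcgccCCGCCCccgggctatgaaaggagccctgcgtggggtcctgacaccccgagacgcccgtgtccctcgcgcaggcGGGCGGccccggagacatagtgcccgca
Bcan: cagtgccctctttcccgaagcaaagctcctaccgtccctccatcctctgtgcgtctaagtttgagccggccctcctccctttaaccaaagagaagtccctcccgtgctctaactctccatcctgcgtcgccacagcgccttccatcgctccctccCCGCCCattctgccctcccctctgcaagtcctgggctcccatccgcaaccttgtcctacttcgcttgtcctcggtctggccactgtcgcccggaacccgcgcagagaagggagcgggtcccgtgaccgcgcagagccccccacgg

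The Olig2 window held 1 TATA box match, 2 CCAAT box matches, 1 GC box match and 0 E-box matches. The Cnp window held 3 GC box matches and 2 E-box matches, of which 1 was CAGCTG. The Bcan window held 1 GC box match and none of the other motifs. All 3 windows were rich in G and C, at 63.3% for Olig2 and Cnp and 64.0% for Bcan. Of 33469 rat promoters of the same length, 14.2% held a TATA box match, 37.5% a CCAAT box match, 33.1% a GC box match, 72.1% a CANNTG match and 15.1% a CAGCTG match. A match is a description of letters, not a binding site. Promoter entries were found for 7 of the 9 members, and the 2 without one were Olig1 and Ptprz1.

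Of the transcription factors, Olig2 stood at 171 and 178 CPM on “High”, at 345 and 302 on “Medium” and at 344 and 386 on “Low”, from 751 to 2387 counts a library. Both “High” libraries were below each of the other 4, whose lowest value was 1.69-fold above the highest “High” value, and “Low” and “Medium” overlapped. The group means were 175 ± 5.02 CPM on “High”, 323 ± 30.4 on “Medium” and 365 ± 29.4 on “Low” (mean ± SD, n = 2 each), which is 1.85-fold and 2.09-fold the “High” mean. The log2 fold change of “Low” and “Medium” against “High” was 0.97 ± 0.34 (SE), with a 95% interval of 0.21 to 1.74. By edgeR’s quasi-likelihood test its unadjusted p ranked 168 of 7729 genes, and the Benjamini-Hochberg adjusted p was 0.779, so that it did not pass the threshold of 0.05. DESeq2 on the same counts gave a log2 fold change of 0.92 and an adjusted p of 0.0146, which passed. Over the 14 alternative settings of this comparison the log2 fold change ran from 0.91 to 1.37, the adjusted p from 0.0146 to 0.9999, and DESeq2 was the setting at which it passed. Between “Low” and “Medium” the log2 difference was 0.18 ± 0.38 (SE), with an interval of −0.66 to 1.02, which leaves room for a difference of either sign. In bulk libraries such as these, fewer cells expressing a gene and less RNA per cell cannot be told apart.

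Olig1, which lies beside Olig2 in the rat genome with 0 annotated genes starting between them, followed a looser pattern. It stood at 147 and 177 CPM on “High”, at 163 and 229 on “Medium” and at 401 and 218 on “Low”. Both “Low” libraries were above both “High” libraries, while “Medium” overlapped “High”. The means were 162 ± 21.6, 196 ± 46.4 and 309 ± 129 CPM (“High”, “Medium”, “Low”, mean ± SD, n = 2 each), and the “Low” mean was set by the library at 401. The log2 fold change of both films against “High” was 0.61 ± 0.44 (SE), with an interval of −0.38 to 1.59 and an edgeR adjusted p of 0.826. With library sizes alone as the scaling, in place of TMM, all 4 “Low” and “Medium” libraries were above “High”. The ratio of Olig2 counts to Olig1 counts was 1.17 and 1.01 on “High”, 2.11 and 1.32 on “Medium” and 0.860 and 1.77 on “Low”, so that it differed as much within “Low” as between films. Across the 6 libraries the log2 levels of the pair had a Pearson r of 0.55, given as a description over libraries that differ in film.

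**Figure D1:**
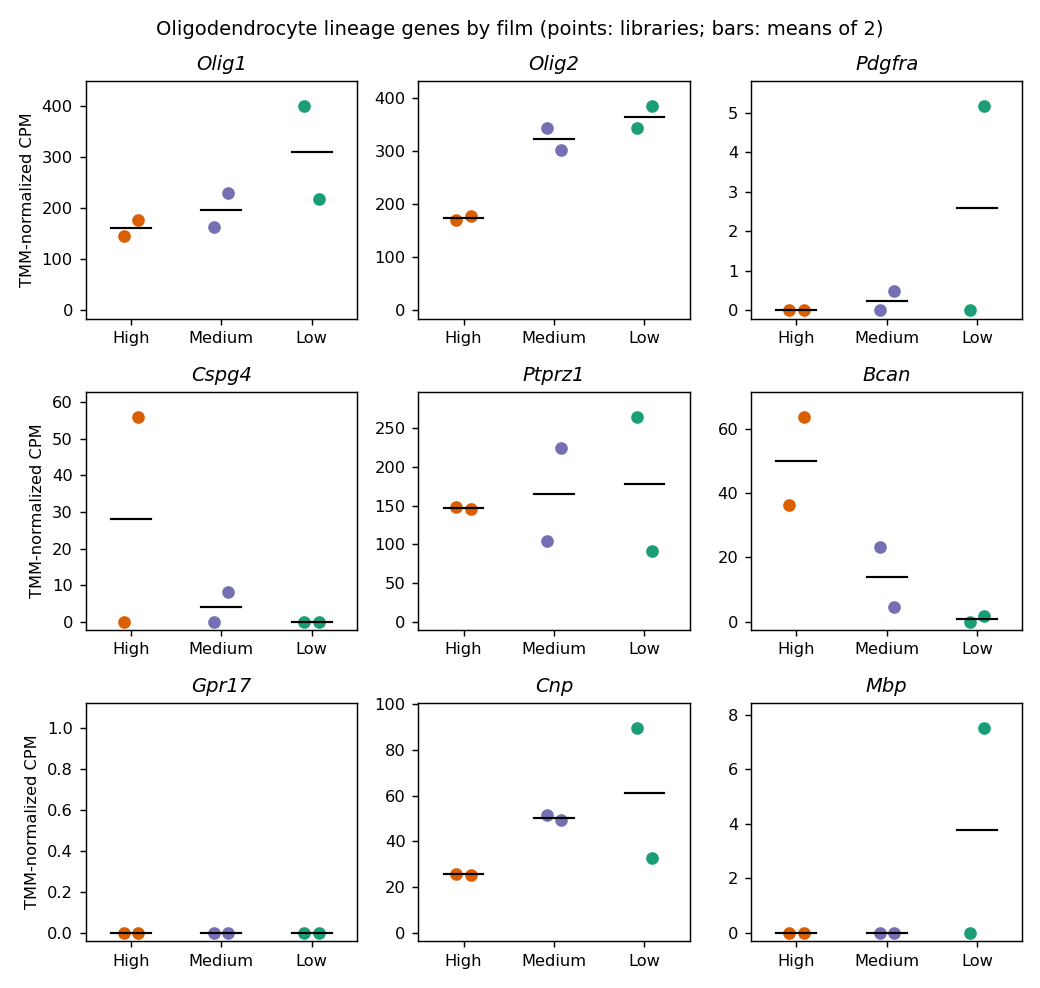
TMM-normalized CPM (vertical axis, linear, a scale of its own for each gene) of the 9 genes on each carbon film (horizontal axis), with 1 point for each library and a bar at the mean of 2. Olig2 and Cnp sit higher and Bcan lower on “Low” and “Medium” than on “High” in every library, the other genes overlap, and Gpr17 is at 0 in all 6.

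Among the precursor receptors and proteoglycans, Pdgfra was close to absent, with 31 counts in Low replicate 2 (5.18 CPM), 3 counts in Medium replicate 2 and 0 counts in the other 4 libraries. Cspg4 had 236 counts in High replicate 2 (56.1 CPM), 50 counts in Medium replicate 2 (8.17 CPM) and 0 counts in the other 4. On either film with counts, Cspg4 was thus in 1 library and missing from its replicate, and the groups overlapped. The mean on “High” was 60.0-fold above the floor of 3 counts in each “Low” library, and without High replicate 2 both films were at 0. The floor covers counting error only and Cspg4 was also at 0 in High replicate 1, so that fold is not a lower bound. Pdgfra was not tested because it had too few counts, and Cspg4 had an edgeR adjusted p of 0.801 for “Low” and “Medium” against “High”. Medium replicate 2 was the 1 library with counts of both of these precursor markers, and Pdgfra was at the floor there.

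Ptprz1, a receptor tyrosine phosphatase of precursors and radial glia, was well expressed in every library. It stood at 148 and 145 CPM on “High”, at 105 and 224 on “Medium” and at 265 and 90.8 on “Low”. The replicates were 1.02-fold apart on “High” but 2.15-fold apart on “Medium” and 2.92-fold apart on “Low”, and the “High” values lay inside the range of each of the other films. Its log2 fold change of “Low” and “Medium” against “High” was 0.22 ± 0.59 (SE), with an interval of −1.09 to 1.53 and an edgeR adjusted p of 0.9997. The sign turned to −0.12 without Medium replicate 2 and to −0.26 without Low replicate 1.

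Bcan, the brain proteoglycan brevican of the perineuronal and glial matrix, went the other way. It stood at 36.1 and 63.7 CPM on “High” (176 and 268 counts), at 23.2 and 4.57 on “Medium” (136 and 28 counts) and at 0 and 1.67 on “Low” (0 and 10 counts). All 4 “Low” and “Medium” libraries were below both “High” libraries, and both “Low” libraries were below both “Medium” libraries. The means were 49.9 ± 19.5, 13.9 ± 13.2 and 0.836 ± 1.18 CPM (“High”, “Medium”, “Low”, mean ± SD, n = 2 each). The log2 fold change of both films against “High” was −3.85 ± 2.499 (SE), with an interval of −9.43 to 1.72 and an edgeR adjusted p of 0.801. The wide interval goes with a fitted dispersion of 2.89, against 0.167 for Olig2, and Bcan did not pass under any of the 14 alternative settings, where the adjusted p ran from 0.254 to 1. Leaving out a library moved its log2 fold change to between −6.48 (without Low replicate 2, which leaves “Low” at 0 counts) and −3.36 (without Low replicate 1).

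Of the committed and myelinating stages, Gpr17 had 0 counts in all 6 libraries, which by counting error alone allows up to 3 counts in each. Mbp had 45 counts in Low replicate 2 (7.52 CPM) and 0 counts in the other 5, and neither gene was tested. The library with Mbp was also the library with the most Pdgfra. Cnp was the myelin gene with counts throughout, at 25.9 and 25.4 CPM on “High”, at 51.6 and 49.2 on “Medium” and at 89.7 and 32.6 on “Low”. All 4 “Low” and “Medium” libraries were above both “High” libraries, the lowest of them by 1.26-fold, and “Medium” lay within the range of “Low”. The means were 25.6 ± 0.305, 50.4 ± 1.73 and 61.2 ± 40.4 CPM (“High”, “Medium”, “Low”, mean ± SD, n = 2 each), which is 1.97-fold and 2.39-fold the “High” mean for “Medium” and “Low”. The log2 fold change of both films against “High” was 1.11 ± 1.42 (SE), with an interval of −2.06 to 4.29 and an edgeR adjusted p of 0.996. The fitted dispersion of Cnp, 1.18, was several times that of Olig2, although its “High” and “Medium” replicates were close together. Counts of Cnp were 14.3% to 16.3% of those of Olig2 on “High” and “Medium” and 26.1% and 8.45% on “Low”, so that the share was close in 4 libraries and differed between the “Low” replicates.

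**Figure D2:**
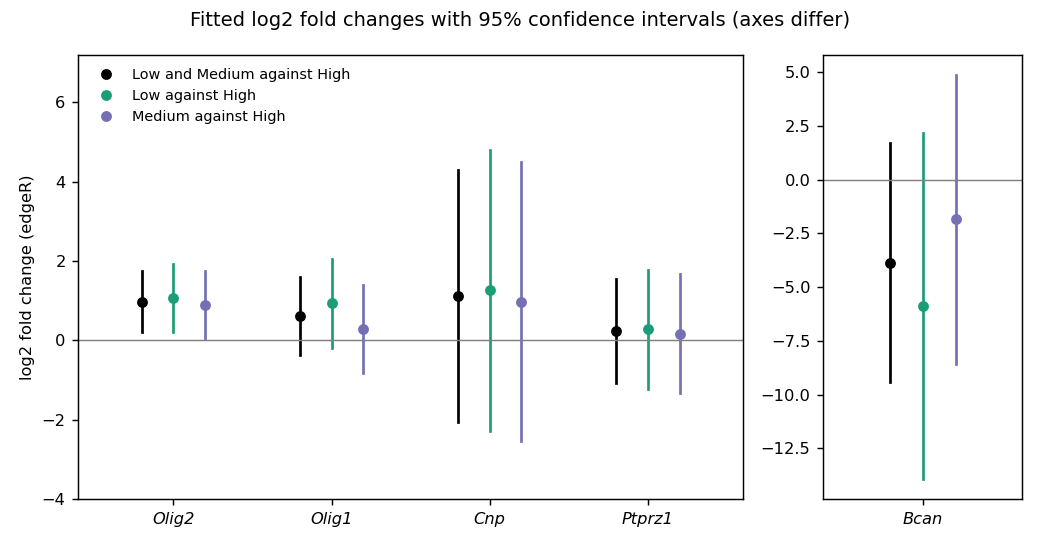
Fitted log2 fold changes (vertical axis, points) with 95% intervals (lines) from edgeR for Olig2, Olig1, Cnp and Ptprz1 (left) and Bcan (right, a wider axis), for “Low” and “Medium” together, “Low” and “Medium” against “High”. The interval of Olig2 lies above 0 in each, from 0.21 to 1.74 for both films together, and those of the other genes cross 0.

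Over the 9 genes, 6 passed the filter on low counts and could be tested, and Pdgfra, Gpr17 and Mbp could not. With edgeR’s quasi-likelihood test, 0 of the 6 passed for “Low” and “Medium” against “High”, where 0.129% of the 7729 genes tested did. The count was also 0 for “Low” against “High” (0.0518% of all genes), “Medium” against “High” (0.0129%) and “Low” against “Medium” (0%). At an unadjusted p under 0.05 there was 1 member, Olig2, in each comparison with “High” and 0 between “Low” and “Medium”, where 5.50%, 4.27%, 4.04% and 1.51% of all genes were in the 4 comparisons. DESeq2 called 1 member, again Olig2, for both films and for “Low” against “High” (log2 fold change 0.998, adjusted p = 0.0271), and 0 in the other 2 comparisons, and limma-voom called 0 in all 4. Of the 6 tested genes, 4 had a higher value on “Low” and “Medium” than on “High”, with a median log2 fold change of 0.41, where the median of all genes tested was −0.12 and 45.9% were higher. By values that do not overlap, 2 of the 6 were above “High” in all 4 libraries (Olig2 and Cnp), where 8.06% of all genes were, and 1 was below (Bcan), where 10.1% were.

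**Figure D3:**
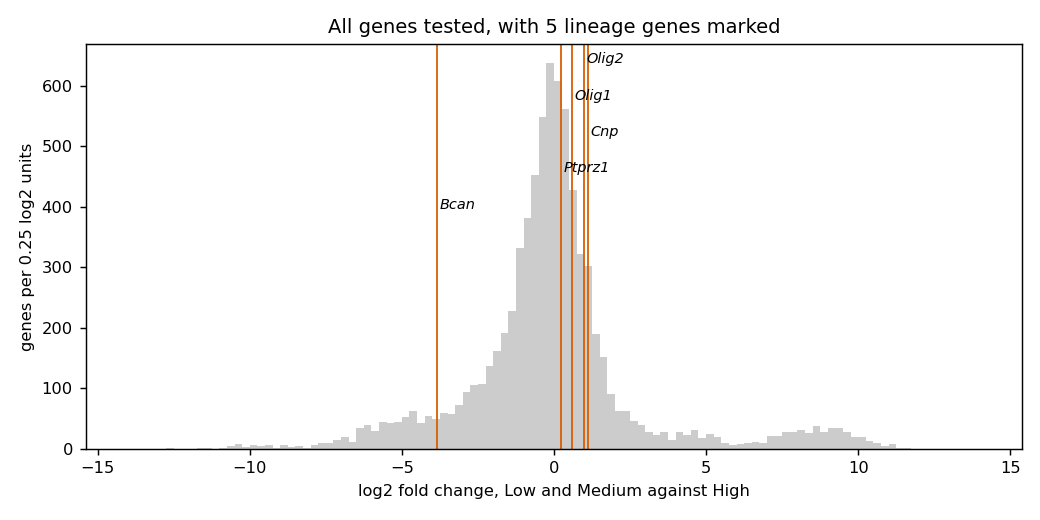
Log2 fold changes of “Low” and “Medium” against “High” (horizontal axis) for the 7729 genes tested, as the number of genes per bin (vertical axis), with lines at 5 of the lineage genes. Olig1 (0.61) and Ptprz1 (0.22) lie between the quartiles of the distribution (−1.17 and 0.76), right of its median of −0.12. Olig2 (0.97) and Cnp (1.11) lie above its upper quartile, and Bcan (−3.85) lies in its lower flank.

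The choice of scaling moved all genes together. With library sizes alone the median log2 fold change of all genes rose by 0.38, from −0.12 to 0.26, and the share of all genes higher on “Low” and “Medium” from 45.9% to 58.2%. Relative to the median of all genes, Olig2 was 1.09 higher with TMM and 1.11 higher with library sizes alone, and Cnp was 1.24 and 1.25 higher. Bcan was −3.73 and −3.68 relative to the same medians. The direction of Olig2, Cnp, Olig1, Ptprz1 and Bcan was the same under both scalings.

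**Figure D4:**
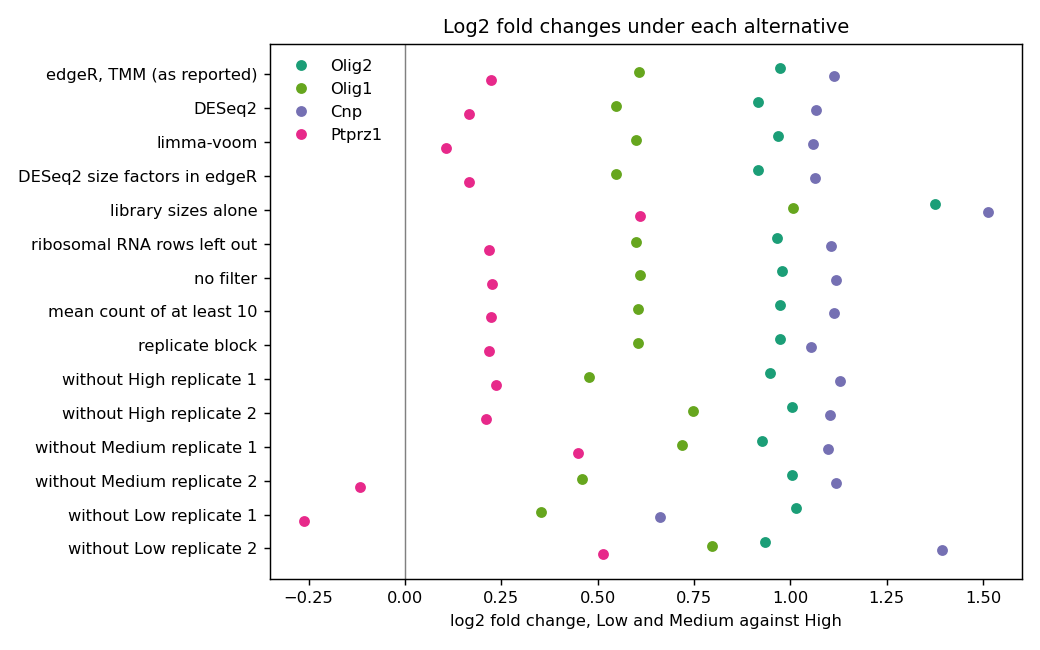
Log2 fold change of “Low” and “Medium” against “High” (horizontal axis) for Olig2, Olig1, Cnp and Ptprz1 as reported and under each of 14 alternatives (vertical axis). Olig2 lies between 0.91 and 1.37 throughout, and Ptprz1 lies below 0 without Medium replicate 2 and without Low replicate 1.

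The other genes of the pathway were read from lists of precursor and specification genes, of differentiating and myelin genes, and of ligands and matrix partners. Of 22 precursor and specification genes, 19 had a row, 7 of these had no count, and 6 could be tested. By edgeR 0 were called, 2 were higher and 4 lower on “Low” and “Medium” than on “High”, and the median log2 fold change was −0.77 against −0.12 for all genes. Tcf7l2, a Wnt pathway transcription factor that is also active in differentiating oligodendrocytes, was the 1 with an unadjusted p under 0.05. It stood at 53.3 and 2.38 CPM on “High”, at 298 and 183 on “Medium” and at 320 and 147 on “Low”. On “Low” and “Medium” it was above “High” in all 4 libraries, as were 8.06% of all genes tested. Its log2 fold change was 3.09 ± 1.06 (SE) with an edgeR adjusted p of 0.779, and it passed in 6 of 14 alternative settings. In the other 8, DESeq2, limma-voom and other scalings among them, the adjusted p ran from 0.0950 to 0.766. Without High replicate 1 the log2 fold change was 6.63 and passed (adjusted p = 1.386e-06), and without High replicate 2 it was 2.15 and did not (0.510), so that its size rested on which “High” library was kept. Epn2, an endocytic adaptor, had a log2 fold change of 0.23, Itpr2, a calcium release channel of the endoplasmic reticulum, of −0.79, and Bcas1, a marker of early myelinating cells, of −0.74, and the values of all 3 overlapped between films.

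Of 32 differentiating and myelin genes, 28 had a row, 12 had no count and 12 could be tested. Of these 9 were higher and 3 lower on “Low” and “Medium”, where 45.9% of all genes were higher. The median log2 fold change was 0.77 against −0.12 for all genes. By edgeR 0 were called, where 0.129% of all genes were, and 0 had an unadjusted p under 0.05. Among the higher, Gal3st1, Plp2 and Cryab had 0 counts in both “High” libraries and passed the filter on low counts through the other films alone. The split and the median include them, so neither is read as a direction of the list. Dag1, the laminin receptor dystroglycan, stood at 347 and 488 CPM on “High”, at 505 and 499 on “Medium” and at 690 and 654 on “Low”. It was thus above “High” in all 4 libraries, as were 8.06% of all genes tested (log2 fold change of Dag1 0.48 ± 0.27, SE, edgeR adjusted p = 0.801). Qk, an RNA-binding protein of myelination, was lower (−0.47) and Car2, a carbonic anhydrase of oligodendrocytes, higher (1.198), with overlapping values. Lpar1, a lysophosphatidic acid receptor, was at 0.03. Plp2 had 0 counts on “High”, 19.99 and 12.6 CPM on “Medium” and 0 and 2.67 CPM on “Low”. Its “Medium” mean was 24.5-fold above the floor of 3 counts in each “High” library, a floor for counting error only. Cryab, a small heat shock protein named after its values were seen, had 164 and 182 counts on “Low” and 0 in the other 4 libraries. Its “Low” mean was 40.7-fold above the same floor on “High”.

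Of 30 ligands and matrix partners, all 30 had a row, 13 had no count and 10 could be tested. Of these 6 were higher and 4 lower on “Low” and “Medium”, where 45.9% of all genes were higher. The median log2 fold change was 0.57 against −0.12 for all genes, and edgeR called 0, where 0.129% of all genes were called. The split and the median include Adamts4, with 0 counts on “High”, and Fgfr1, with 0 counts on “Low” and “Medium”. Neither is therefore read as a direction of the list. Pdgfa, the ligand of Pdgfra, stood at 34.7 and 28.3 CPM on “High”, at 139 and 49.7 on “Medium” and at 70.3 and 84.2 on “Low”. On “Low” and “Medium” it was above “High” in all 4 libraries, as were 8.06% of all genes tested. The log2 fold change of Pdgfa was 1.44 ± 1.06 (SE) with an edgeR adjusted p of 0.829. Ptn, a secreted ligand of Ptprz1, was the most abundant of the list, at 1294 and 731 CPM on “High” and 957 to 1210 on the other films, and its values overlapped (log2 fold change 0.05). Igf1r and Vcan also overlapped, at −0.57 and 1.08. Fgfr1, a receptor for fibroblast growth factors, was named after its values were seen. It had 17.4 and 134 CPM on “High” and 0 counts in all 4 other libraries. Its “High” mean was 162-fold above the floor on “Low” and 151-fold above that on “Medium”, floors for counting error only. It passed the filter on low counts through “High” alone, and no test is drawn from it.

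Markers of other cell types were read in the same libraries. The NSPC list had counts for 5 of 7 genes (Msi1 and Hes5 at 0) and summed to 2732 and 2543 CPM on “High” and 3553 to 4675 on the other films, so that, like Olig2 and Cnp, it was higher in all 4. Vim made up 69.6% to 78.4% of that sum in each library, and without Vim it was 595 and 571 CPM on “High” and 1008 to 1347 on the others. Sox2 and Nes were higher in all 4 as well, but Fabp7 was at 204 and 224 CPM on “High”, 340 and 156 on “Medium” and 42.1 and 118 on “Low”, and Pax6 overlapped between films. The astrocyte list had counts for 6 of 9 genes (Aqp4, Aldh1l1 and Slc1a2 at 0). It summed to 294 and 287 CPM on “High” and 327 to 544 on the others, so that it was also higher in all 4. Slc1a3 was its leading gene, and without Slc1a3 the sums overlapped, at 156.5 and 171.3 CPM on “High” and 128.5 to 219 on the others. Gfap had counts in High replicate 1 alone (14.4 CPM). The radial glia list, which includes Ptprz1, had counts for 6 of 7 genes (Hopx at 0) and overlapped, at 507 to 649 CPM on “High” and 600 to 739 on the others. Pericyte and vascular markers had counts for 4 of 10 genes, with Pdgfrb, Rgs5, Abcc9, Pecam1, Cdh5 and Cldn5 at 0 in every library, and summed to 95.2 and 101 CPM on “High” and 9.31 to 52.1 on the others, in the direction of Bcan. Most of the “High” sum was Acta2, at 56.8 and 101 CPM, and Tagln was in 1 library of each film. The neuron list had counts for 6 of 8 genes (Rbfox3 and Syp at 0) and overlapped, at 30.9 to 69.1 CPM on “High” and 27.0 to 201 on the others. The meninges were removed when the cells were prepared. Meningeal fibroblast markers (3 of 7 with counts, with Dcn, Lum, Foxc1 and Slc6a13 at 0) stood at 390 CPM in Medium replicate 2 and at 0 to 35.6 in the others, and microglia markers (1 of 7, Aif1) at 7.07 CPM in Low replicate 1 and 0 elsewhere. The part of these markers, and of the ribosomal RNA share, in the lineage values was not tested. With the ribosomal RNA rows left out, Olig2 had a log2 fold change of 0.96. That fit changes only which rows enter the filter and the scaling, so it cannot show the part of the ribosomal RNA share.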

How the data were processed

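RNA-seq libraries of rat NSPCs on “High”, “Medium” and “Low” carbon films (2 each) were grouped by their titles. Single-end QuantSeq reads were aligned by the authors (Bowtie2) and summed per gene with bedtools coverage, reads that align to several places included, on rn6 per the submitters’ processing notes, and deposited these whole-number counts before their TMM and CPM normalization. Use of strand in counting is not given in the sources used here, so overlapping or antisense genes and near-identical copies cannot be told apart from a gene.

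The counts of all 6 libraries entered 1 fit of 3 group means in R 4.3.3 with edgeR 4.0.16 (filterByExpr with a minimum count of 10, TMM, quasi-likelihood test, Benjamini-Hochberg adjustment over 7729 genes, threshold 0.05). The common dispersion was 2.04, with 3 residual and 6.96 prior degrees of freedom. Contrasts were the mean of “Low” and “Medium”, “Low” and “Medium” each against “High”, and “Low” against “Medium”. An exact two-sided permutation test cannot go below p = 0.133 for 4 libraries against 2, or 0.333 for 2 against 2, so none was used. The fit was tested on simulated data. Alternatives were DESeq2 1.42.0, limma-voom (limma 3.58.1), other scalings and filters, a replicate block, fits of fewer groups and leaving out each library.

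The members, gene lists and markers were chosen with earlier results of these data known. The text names all 9 members and, of each list, the 4 genes with the highest mean CPM, with Plp2 and Dag1, which a heatmap of the study, drawn from these samples, shows among oligodendrocyte genes, so that they are not independent evidence, and for each member with counts in all libraries the 2 most alike genes; Fgfr1 and Cryab were named after their values were seen. Correlations used log2(CPM + 1). Promoters came from RefSeq (GRCr8), and no coordinates were converted between builds.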

Additional observations from a re-analysis of the deposited data

How the results depend on the processing

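Of 350 alternative values of the members’ log2 fold changes, 338 kept their direction and their side of the threshold, 2 passed it and 10 changed sign. DESeq2 raised the members called from 0 to 1 (Olig2) for “Low” and “Medium” against “High” and for “Low” against “High”, and moved the genes called for both films from 10 to 351. That count was 23 with limma-voom, 68 without a filter, 56 with a mean count of at least 10, 57 with the replicate block, and 34 to 242 when a library was left out, highest without Medium replicate 2. Over all alternatives the genes called ran from 0 to 291 for “Low” against “High” (4 as reported), from 0 to 307 for “Medium” against “High” (1) and from 0 to 194 for “Low” against “Medium” (0). Leaving out a library moved the members higher for both films from 4 to between 4 and 7 (7 without High replicate 2, where more genes were tested), and for “Medium” against “High” to between 2 and 6 (2 without Medium replicate 2). The changes of sign all came from leaving out a library. For both films, Cspg4 ran from −10.3 to 3.81 (without High replicate 2, a fitted value that depends on the prior count) and Ptprz1 from −0.26 to 0.51. For “Medium” against “High”, Cspg4 ran from −10.3 to 7.61, Ptprz1 from −0.51 to 0.62 and Olig1 from −0.0156 to 0.50. Ptprz1 ran from −0.69 to 0.86 for “Low” against “High”, and for “Low” against “Medium” Ptprz1 ran from −0.86 to 0.80 and Cnp from −0.63 to 0.83. The cause was not tested. Cspg4 gave no value where both groups had 0 counts. With the replicate block 0 members were called and Olig2 had a log2 fold change of 0.97 (edgeR adjusted p = 0.719), while Tcf7l2 passed (3.87, adjusted p = 0.00376), but same-numbered libraries shared only a number, with deviations correlated at 0.00657, 0.00344 and 0.00731. Differences below the floor of 3 counts were not detectable for Gpr17, and Pdgfra and Mbp had too few libraries with counts for a test.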

Other observations

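Over the 3952 genes compared, the genes whose levels on the 6 libraries were most like Olig2 were Ppil3, a peptidyl-prolyl isomerase (Pearson r = 0.995), and 1 row of Actg1, a cytoplasmic actin (0.990). Those most like Olig1 were Fbxw11, a substrate adaptor of a ubiquitin ligase (0.988), and Maged1 (0.980). Those most like Ptprz1 were Rsl24d1, a ribosome biogenesis factor (0.972), and Ppp2r4 (0.971), and those most like Cnp were Ppp1r35 (0.968) and Fkbp1a (0.968). No other lineage gene was among these. Among Olig1, Olig2, Ptprz1 and Cnp, the 4 lineage genes with counts in all 6 libraries, Olig1 and Cnp had the highest r (0.80), and Olig2 and Ptprz1 the lowest (−0.09). These are descriptions over 6 libraries that share their films, given with no p.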
